A study of Homo sapiens with 8 samples.

Results

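The response of LNCaP prostate cancer cells to activated Notch1 is described here, from the 4 LNCaP arrays among the 8 of the series. The members were chosen by their labels alone. The arrays labelled LNCaP with overexpressed Notch1 were set against the LNCaP arrays labelled as GFP controls, with 2 arrays in each group, probe set by probe set, over the 12558 probe sets that remained once the control probe sets of the array were left out. LNCaP is an androgen-responsive prostate cancer line derived from a metastasis in a lymph node. The control group expressed green fluorescent protein (GFP) alone, the other group an activated form of Notch1, and the cells were profiled after acute activation of the pathway. No source used here states the vector or the duration for the array samples. The other 4 arrays of the series carry the same pair of conditions in PC3, a prostate cancer line from a bone metastasis, and enter here only through the shared estimate of spread and a test of the difference between lines.

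Notch receptors are cut within the membrane after they bind a ligand of the Jagged or Delta families on a neighbouring cell. The released intracellular domain enters the nucleus, binds the DNA-binding protein CSL (RBPJ) and turns on targets such as the HES repressors. An activated receptor signals without ligand. In prostate epithelium the pathway is known for its part in growth control and in the differentiation of basal into luminal cells.

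Levels were log2 expression values, so that a difference of 1 is a 2-fold change. A gene was called where the Benjamini-Hochberg adjusted p of limma, taken over all 12558 probe sets, was under 0.05. It was counted as well expressed where its mean over the LNCaP arrays reached log2 8. That mean takes in both groups. A gene that rose could reach the limit through the Notch1 arrays, and one that fell through the GFP arrays. Shares called among well expressed genes therefore depend in part on the change itself. With 2 arrays per group and 2 chips made per sample according to the methods, p-values measured only the spread between arrays, which may be technical. The median level was 6.28 on both GFP arrays and 6.36 and 6.33 on the Notch1 arrays, and 31.9% to 33.0% of probe sets lay under log2 5. Taken across probe sets, which do not count as replicates, arrays of a group correlated at 0.9963 and 0.9965 and arrays of different groups at 0.9805 to 0.9827. The 3′ minus 5′ difference of the beta-actin control probe sets was 0.582 and 0.668 with GFP and 0.385 and 0.524 with Notch1, and that of GAPDH 0.568 and 0.552 against 0.403 and 0.356. Both control transcripts thus had the smaller 3′ excess on the Notch1 arrays, and the part of this in the results was not tested.

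Activated Notch1 raised 1006 probe sets (8.01%) and lowered 1170 (9.32%). Among the 3138 well expressed probe sets, 272 (8.67%) were higher and 475 (15.1%) were lower, so falls outnumbered rises where signal was strong. Counted by gene, with 1 probe set for each of 8226 genes, 699 (8.5%) were higher and 846 (10.3%) lower, and of the 2425 well expressed genes 214 (8.82%) were higher and 361 (14.9%) lower. Counts over all measured members of a gene group below are read against 8.5% higher and 10.3% lower. Counts over well expressed members are read against 8.82% and 14.9%. Most of the changes at high levels were modest. The median size was 0.69 among the 214 rises and -0.65 among the 361 falls, and 62 and 57 of them reached 2-fold. The groups did not overlap for any of the 214 or the 361, so a lack of overlap given below adds nothing to a call. The counts depended on single arrays. Without LNCaP GFP replicate 2 the probe set counts were 655 higher and 679 lower, without LNCaP Notch1 replicate 1 the higher count was 539, and without LNCaP Notch1 replicate 2 the lower count was 638. For well expressed probe sets, the higher count was 180 without GFP replicate 2 and 152 without Notch1 replicate 1, and the lower count 299 without GFP replicate 1, 277 without GFP replicate 2 and 232 without Notch1 replicate 2.

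**Figure D1:**
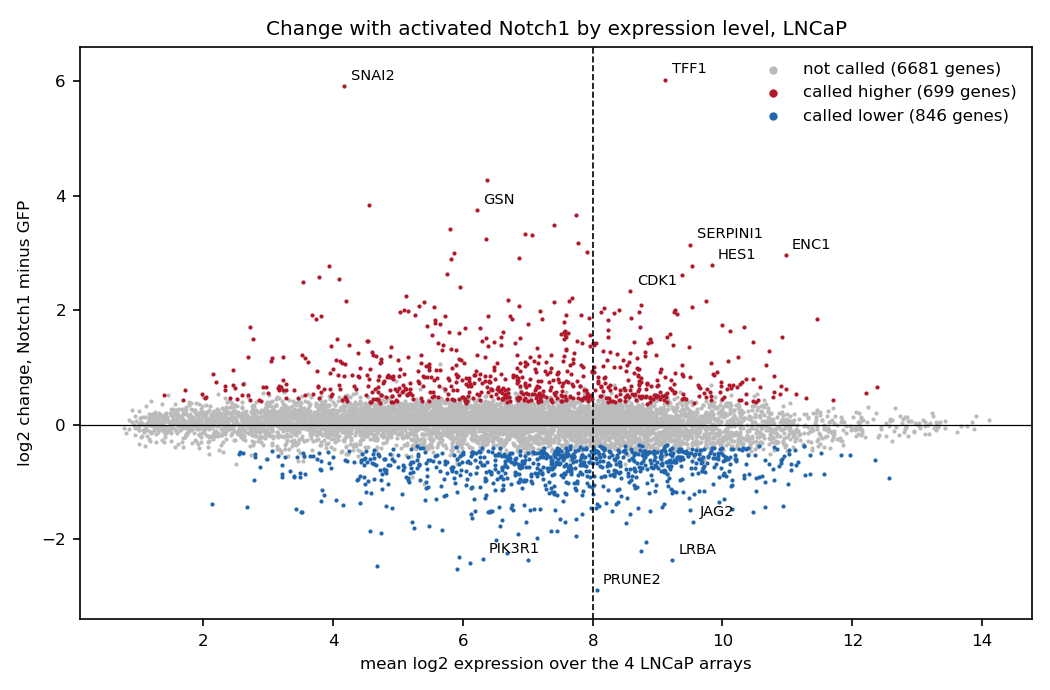
Change with activated Notch1 (log2, Notch1 minus GFP, vertical axis) against the mean log2 level over the 4 LNCaP arrays (horizontal axis), 1 point per gene. Red and blue points mark the 699 genes called higher and the 846 called lower, grey points the genes not called, and the dashed line the level of log2 8. The MAP2K5 probe set with a change of -9.34 lies outside the range drawn. Red points to the right of the line are fewer than blue ones, 214 against 361.

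The direct target HES1, a transcriptional repressor that is the usual readout of Notch signalling, had levels of 8.41 and 8.47 with GFP and 11.22 and 11.23 with activated Notch1. The Notch1 arrays lay far above the controls and almost on top of each other. The rise was 2.78 ± 0.12 (SE) on the log2 scale, with an adjusted p of 3.12e-07 in the limma fit. NOTCH1 and HEY1 were not analysed here. The reference promoter of HES1 (RefSeq, GRCh38.p14, chr3:194135898-194136147, plus strand, the 250 bases before the start) is shown because it holds a pair of copies of the core letters TGGGAA of the CSL binding site, in capitals, 84 and 70 bases before the start.

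HES1: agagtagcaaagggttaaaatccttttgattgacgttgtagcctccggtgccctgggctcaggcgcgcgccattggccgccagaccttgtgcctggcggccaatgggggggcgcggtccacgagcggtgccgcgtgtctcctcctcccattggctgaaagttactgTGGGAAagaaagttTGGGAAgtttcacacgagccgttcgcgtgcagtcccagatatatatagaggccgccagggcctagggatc

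Of 16 measured genes of the Notch pathway, 5 were higher and 2 lower, and all 6 well expressed ones were called. The ligands moved in opposite directions. JAG1 stood at 8.27 and 8.47 with GFP and 9.87 and 9.94 with activated Notch1, a rise of 1.53 ± 0.13 (limma adjusted p = 2.26e-05). JAG2, the other Jagged ligand of the pair, stood at 10.42 and 10.38 with GFP and 8.72 and 8.69 with activated Notch1 and fell by 1.70 ± 0.12 (limma adjusted p = 7.03e-06). Neither gene overlapped between groups. The remaining called members are named after their values were seen. The receptor NOTCH3 rose by 0.72, the sheddase ADAM10, which makes the first activating cut, by 1.25, and nicastrin (NCSTN), a subunit of gamma-secretase, by 0.63, while the gamma-secretase subunit PSEN2 fell by 0.84. NOTCH3, at 7.85 and 7.59 with GFP, and ADAM10, with a GFP mean of 7.95, counted as well expressed only through the Notch1 arrays. That all 6 were called therefore depends in part on the change itself. The calls of NOTCH3 and NCSTN were lost without LNCaP Notch1 replicate 1 (adjusted p = 0.0623 and 0.0601), and that of NOTCH3 also without LNCaP GFP replicate 2 (0.0545), and 2 other ADAM10 probe sets were not called. Over the whole pathway list, 3 of 20 promoters held TGGGAA on either strand, against 20.8% of all 35116 promoters searched, so the HES1 promoter did not stand for the list.

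Mitotic genes had the largest median change of the lists examined. They are switched on late in the cell cycle, many of them through promoters with a cell cycle homology region (CHR) and CCAAT boxes bound by NF-Y. Of 36 measured genes of G2 and mitosis, 33 were higher and 0 lower, with a median change of 1.62 against 0.04 over all genes. The count was 32 or 33 without any single LNCaP array. CDK1, the kinase that drives entry into mitosis, had levels of 7.45 and 7.39 with GFP and 9.56 and 9.94 with activated Notch1, a rise of 2.33 ± 0.14 (limma adjusted p = 2.5e-06). UBE2C, a ubiquitin-conjugating enzyme that works with the anaphase-promoting complex, stood at 8.35 and 8.20 with GFP and 10.34 and 10.14 with activated Notch1. ZWINT, a kinetochore protein, stood at 8.24 and 8.75 with GFP and 10.51 and 10.60 with activated Notch1. For all 3 genes both Notch1 arrays were above both GFP arrays by more than 1.5 on the log2 scale. UBE2C rose by 1.97 ± 0.13 and ZWINT by 2.06 ± 0.19 (limma adjusted p = 4.56e-06 and 4.09e-05). Among members chosen after their values were seen, cyclin B1 (CCNB1) rose by 1.66, the CDK-binding protein CKS1B by 1.94 and securin (PTTG1) by 1.59. Only 12 of the 36 were well expressed, of which 10 were called. CDK1 and CCNB1 reached that limit only through the Notch1 arrays, with GFP means of 7.42 and 7.40.

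The promoters of CDK1, ZWINT and LIG1 (DNA ligase I) are shown for the cell cycle genes that rose, and those of HERPUD1, a component of ER-associated degradation, and SREBF2, the transcription factor of cholesterol synthesis, for the stress and sterol genes that fell. They are the 250 bases before the start in RefSeq, GRCh38.p14. CDK1 lies at chr10:60778228-60778477 (plus strand), ZWINT at chr10:56361260-56361509 (minus strand), LIG1 at chr19:48170345-48170594 (minus strand), HERPUD1 at chr16:56931892-56932141 (plus strand) and SREBF2 at chr22:41832855-41833104 (plus strand). Capitals mark CHR, spelled TTTGAA, the CCAAT box, E2F sites (TTTGGCGC, TTTCCCGC, TTTCGCGC or TTTGCCGC), the amino acid response motif (TGATGNAA) and the sterol response motif (TCACNCCAC), each searched on both strands, so that a match on the opposite strand appears as its reverse complement.
CDK1: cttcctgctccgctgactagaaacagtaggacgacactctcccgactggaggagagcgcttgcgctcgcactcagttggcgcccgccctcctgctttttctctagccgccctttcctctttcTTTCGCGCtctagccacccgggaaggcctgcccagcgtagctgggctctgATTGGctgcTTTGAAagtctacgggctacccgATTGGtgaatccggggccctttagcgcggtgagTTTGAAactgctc
ZWINT: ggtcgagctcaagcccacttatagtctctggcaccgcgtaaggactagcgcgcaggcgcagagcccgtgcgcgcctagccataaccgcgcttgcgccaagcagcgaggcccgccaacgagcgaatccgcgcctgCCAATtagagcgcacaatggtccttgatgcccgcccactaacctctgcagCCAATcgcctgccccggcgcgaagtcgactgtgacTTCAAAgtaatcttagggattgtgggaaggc
LIG1: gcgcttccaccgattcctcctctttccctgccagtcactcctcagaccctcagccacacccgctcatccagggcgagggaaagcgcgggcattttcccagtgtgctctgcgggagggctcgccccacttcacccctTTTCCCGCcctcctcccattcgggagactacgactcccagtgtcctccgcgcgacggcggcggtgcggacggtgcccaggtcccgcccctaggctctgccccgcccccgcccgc
HERPUD1: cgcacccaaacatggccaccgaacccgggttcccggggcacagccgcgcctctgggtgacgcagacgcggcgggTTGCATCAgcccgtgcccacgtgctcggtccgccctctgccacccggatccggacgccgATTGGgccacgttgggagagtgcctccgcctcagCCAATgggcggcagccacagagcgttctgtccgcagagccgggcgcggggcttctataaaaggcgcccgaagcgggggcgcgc
SREBF2: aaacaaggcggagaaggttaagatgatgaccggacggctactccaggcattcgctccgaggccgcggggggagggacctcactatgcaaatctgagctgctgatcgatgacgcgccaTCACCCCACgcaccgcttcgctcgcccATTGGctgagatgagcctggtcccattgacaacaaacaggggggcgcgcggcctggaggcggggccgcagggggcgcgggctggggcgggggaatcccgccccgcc

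CDK1 held CHR 69 and 13 bases before its start, CCAAT on the opposite strand 78 and 46 bases before it and an E2F site at 128. Another CDK1 promoter, not shown (chr10:60778081-60778330), held CHR at 161 and CCAAT at 150 without an E2F match. ZWINT held CHR on the opposite strand at 31 and CCAAT at 116 and 66, LIG1 an E2F site at 114, and HERPUD1 the amino acid response motif on the opposite strand at 176 with CCAAT at 117, on the opposite strand, and 83. SREBF2 held the sterol response motif at 133 and CCAAT, on the opposite strand, at 106. Across the list of G2 and mitosis, 16 of 40 promoters (40.0%) of 29 genes held CHR against 13.3% of all promoters, and 30 (75.0%) held CCAAT against 32.0%. An E2F site, as in CDK1, occurred in 1 of the 40 (2.5% against 2.79%). DNA replication showed another pattern for CHR and E2F, with CHR in 0 and an E2F site in 12 of 40 promoters (30.0%) of 31 genes, against 2.79% of all promoters. CCAAT was frequent there too, in 21 of the 40 (52.5% against 32.0%). CCAAT occurred in 21 of 30 promoters (70.0%) of the sterol and fatty acid genes, and the sterol response motif in 1 (3.33% against 0.883%). The amino acid response motif occurred in 5 of 35 promoters (14.3%) of the amino acid and stress genes against 3.14%, and CCAAT in 16 (45.7% against 32.0%). These are counts of letters over the lists as they were written, whether or not a member moved, and a match is not evidence that a site is bound. A promoter that held several motifs was counted under each, overlapping matches included, and several starts of a gene count as several promoters.

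**Figure D2:**
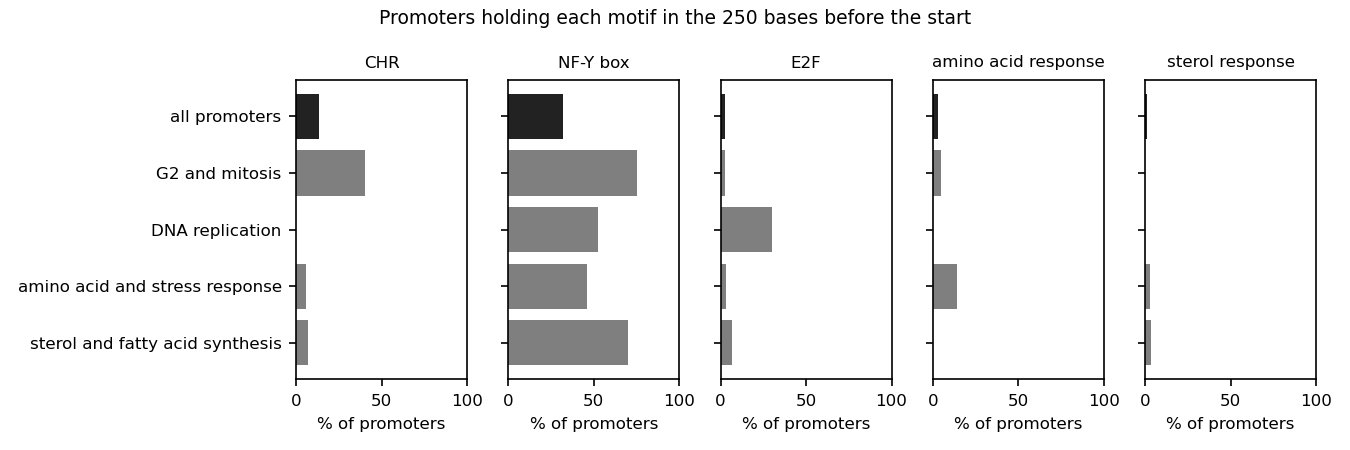
Percent of promoters (horizontal axis, 0 to 100) that hold each motif in the 250 bases before the start, for all 35116 promoters (black) and for those of 4 gene lists (grey). CHR is most frequent in G2 and mitosis at 40.0%, the E2F site in DNA replication at 30.0%, and the NF-Y box (CCAAT) in G2 and mitosis at 75.0%.

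Most of the measured genes that copy DNA rose. Of 35 measured replication genes 25 were higher and 1 lower (median change 0.67), and the count was 20 to 22 when any single LNCaP array was left out. The 1 lower member, ORC2 of the origin recognition complex (-0.83), was singled out after its value was seen. PCNA, the sliding clamp of DNA polymerases, had levels of 10.11 and 10.20 with GFP and 11.20 and 11.17 with activated Notch1. FEN1, the flap endonuclease, stood at 10.12 and 10.02 with GFP and 11.50 and 11.24 with activated Notch1, and LIG1, which seals Okazaki fragments, at 7.54 and 7.73 with GFP and 9.06 and 8.75 with activated Notch1. In each of them the arrays of a group lay within 0.4 of each other and the groups were apart. PCNA rose by 1.03 ± 0.13, FEN1 by 1.29 ± 0.13 and LIG1 by 1.27 ± 0.14 (limma adjusted p = 0.000408, 5.71e-05 and 0.000121). MCM4, a subunit of the replicative helicase, rose by 2.04. Of members chosen after their values were seen, the clamp loader subunit RFC4 rose by 1.16, RPA3, of the single-strand binding complex, by 0.82, and the helicase subunits MCM7 and MCM6 by 0.80 and 0.67.

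Enzymes of nucleotide synthesis went both ways. TYMS, which makes thymidylate, had levels of 9.57 and 9.48 with GFP and 10.74 and 10.53 with activated Notch1, and TK1, which salvages thymidine, 7.29 and 7.41 with GFP and 9.45 and 9.15 with activated Notch1. The groups did not overlap for either enzyme. TYMS rose by 1.11 ± 0.13 and TK1 by 1.95 ± 0.14 (limma adjusted p = 0.000231 and 9.17e-06). ADA, which breaks down adenosine, gave the largest change of the list, from 8.25 and 8.03 with GFP to 11.02 and 10.81 with Notch1, a rise of 2.78 ± 0.15 (limma adjusted p = 1.54e-06). Named after their values were seen, the small subunit of ribonucleotide reductase (RRM2) rose by 2.41 and the dUTPase DUT by 0.62. The list as a whole was split, with 8 of 32 higher, 6 lower and a median of -0.06. The lower ones, all by less than 0.7, were IMPDH2, APRT, ATIC, PFAS, NME1 and PRPS1, the last 4 named after their values were seen. They were not stable, with 1, 0, 4 and 0 members lower without LNCaP GFP replicate 1, GFP replicate 2, Notch1 replicate 1 and Notch1 replicate 2. The higher count was 5 without GFP replicate 1 or either Notch1 array.

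The next list holds proteins that package and hold chromosomes. In this list of cohesin, condensin and nuclear lamina 10 of 22 genes were higher and 1, HMGA1, was lower (median 0.56), with 6 higher without LNCaP Notch1 replicate 1. Lamin B1 (LMNB1), of the nuclear envelope, stood at 8.19 and 8.10 with GFP and 9.63 and 9.50 with activated Notch1, and HMGB2, a chromatin protein of dividing cells, at 9.16 and 9.43 with GFP and 11.01 and 10.86 with activated Notch1. Both Notch1 arrays were at least 1 unit above both GFP arrays for either gene. They rose by 1.42 ± 0.12 and 1.64 ± 0.16 (limma adjusted p = 1.94e-05 and 5.29e-05). The condensin subunit NCAPD2, picked after its value was seen, rose by 1.63. The calls of HMGA1 (-0.49) and of the cohesin subunit RAD21 (0.79) were less firm, since HMGA1 lost its call without GFP replicate 1 and without Notch1 replicate 2, and RAD21 without any 1 of the 4 LNCaP arrays.

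The regulators of the G1 phase did not move as a group. Of 30 cyclins, CDKs, inhibitors and E2F factors 9 were higher and 4 lower (median 0.08), and without a single LNCaP array the higher count was 5 (GFP replicate 2) or 6. The lower count was 2 without GFP replicate 2 or Notch1 replicate 1. Cyclin D1 (CCND1), which starts G1 progression, stood at 10.19 and 10.10 with GFP and 11.73 and 11.63 with activated Notch1, and MYC, a growth-promoting transcription factor, at 10.48 and 10.40 with GFP and 9.65 and 9.55 with activated Notch1. They moved in opposite directions without overlap between groups. CCND1 rose by 1.53 ± 0.11 and MYC fell by 0.84 ± 0.12 (limma adjusted p = 8.41e-06 and 0.000719). The other lower members were CCNG2 (-0.83, not called without GFP replicate 2 or Notch1 replicate 1) and, seen afterwards, RBL2 and E2F5.

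Of 37 DNA repair genes 12 were higher and 1 lower (median 0.29), though at well expressed levels only 2 of 13 were higher. Those were FANCG, of the Fanconi anaemia complex, with a rise of 1.43 ± 0.13, and DDB2, a damage sensor of nucleotide excision repair, with 0.85 ± 0.12 (limma adjusted p = 2.76e-05 and 0.00072). FANCG, with a GFP mean of 7.34, reached that level only through the Notch1 arrays. The lower one was XRCC5, the Ku80 end-binding protein, which fell by 0.69 ± 0.12 (limma adjusted p = 0.00273). Of its 3 other probe sets, those with -1.05 and -0.89 were called and that with 0.20 was not. Histone probe sets, many of which share sequence between near-identical genes, were 2 higher and 3 lower of 21. The linker histone H1-2 had levels of 7.24 and 7.39 with GFP and 9.14 and 9.14 with activated Notch1, and H2AX, which marks DNA breaks once phosphorylated, 8.14 and 8.22 with GFP and 9.73 and 9.52 with activated Notch1. They rose by 1.82 ± 0.12 and 1.45 ± 0.12 (limma adjusted p = 5.14e-06 and 1.55e-05), and no histone was higher beside them. The lower ones were H2BC14 (-0.50, called only without Notch1 replicate 1 among omissions of an LNCaP array), and H2AC8 and H2BC21, noted after their values were seen, with 1 to 5 lower when an LNCaP array was left out, the lowest count without GFP replicate 2 or Notch1 replicate 2.

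**Figure D3:**
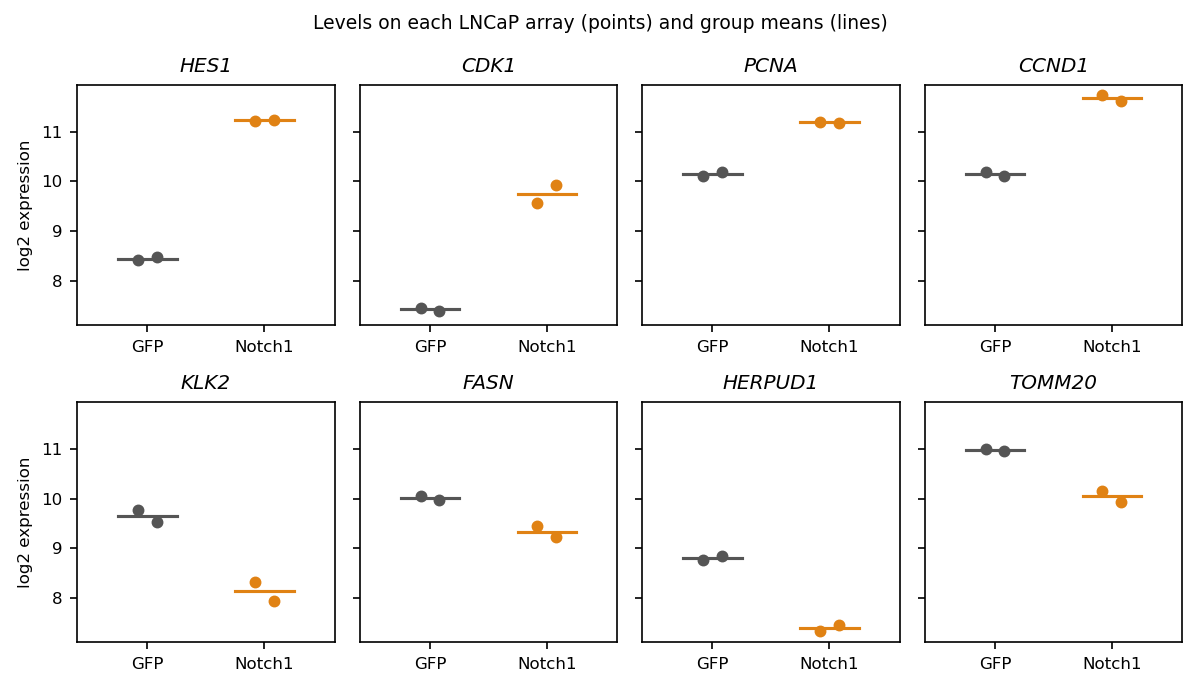
Levels (log2 expression, vertical axis) of 8 genes on each LNCaP array, with 2 points per group and a line at the group mean. HES1, CDK1, PCNA and CCND1 are higher and KLK2, FASN, HERPUD1 and TOMM20 lower on both Notch1 arrays than on both GFP arrays.

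Cells short of amino acids or with unfolded proteins in the ER induce a programme through ATF4 and CHOP. Of 24 measured genes of this programme 13 were lower and 0 higher, with a median of -0.55 and 0 higher also at an unadjusted p under 0.05. Among 13 well expressed members 7 were lower, against the 14.9% of all such genes, and 10 or 11 of the whole list were lower without any single LNCaP array. HERPUD1 had levels of 8.77 and 8.84 with GFP and 7.32 and 7.46 with activated Notch1. It counted as well expressed only through the GFP arrays, so the share among such members depends in part on the change itself. CHOP (DDIT3) itself stood at 10.18 and 9.77 with GFP and 8.89 and 8.71 with activated Notch1, and CEBPB, a transcription factor that partners it, at 9.78 and 9.77 with GFP and 8.77 and 8.52 with activated Notch1. In each of these the lowest GFP array was above the highest Notch1 array by at least 0.8. HERPUD1 fell by 1.42 ± 0.13, DDIT3 by 1.18 ± 0.17 and CEBPB by 1.13 ± 0.13 (limma adjusted p = 3.71e-05, 0.000746 and 0.000168). Asparagine synthetase (ASNS) and the proline enzyme PYCR1, named after their values were seen, fell by 0.75 and 0.75. Chaperones of the ER were counted apart. In a list of 33 ER folding and translocation genes 1, the translocon subunit SSR1, was higher and 1, SEC63, picked afterwards, was lower (median -0.25). The lower count was 7 with the replicate block, 5 with an intensity trend, 4 with median centring and 4 with the LNCaP arrays alone, and 10 were lower and 3 higher at an unadjusted p under 0.05. HSPA5 (BiP), the main ER chaperone, stood at 9.87 and 10.03 with GFP and 9.59 and 9.53 with activated Notch1 (-0.39, limma adjusted p = 0.12), and it was called with the replicate number as a block (adjusted p = 0.0487). The SSR1 call was lost without Notch1 replicate 1, and the SEC63 call without any array but GFP replicate 1.

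Enzymes of the cholesterol and fatty acid pathways are induced together by the SREBP transcription factors. Of 24 measured members 12 were lower and 0 higher (median -0.42), and 11 of the 18 well expressed ones were lower. The count was 7 without GFP replicate 1 or Notch1 replicate 2, and 8 and 9 without the others. FASN, the fatty acid synthase, had levels of 10.06 and 9.97 with GFP and 9.44 and 9.23 with activated Notch1, and IDI1, of the isoprenoid steps, 11.46 and 11.52 with GFP and 10.94 and 10.73 with activated Notch1. Neither overlapped between groups, but the changes were under 1. FASN fell by 0.68 ± 0.12 and IDI1 by 0.66 ± 0.12 (limma adjusted p = 0.00311 and 0.00441). INSIG1, which holds the SREBP proteins in the ER, stood at 8.83 and 9.28 with GFP and 8.23 and 8.24 with activated Notch1 and fell by 0.81 (limma adjusted p = 0.00428), with an adjusted p of 0.0576 where values under log2 5 were raised to log2 5. The size of the INSIG1 change was unaltered there. Chosen after their values were seen, the late sterol enzymes SC5D and DHCR7 fell by 0.64 and 0.60. SREBF2 fell by 0.57 (limma adjusted p = 0.0128), a call lost without GFP replicate 1 (0.0833), without Notch1 replicate 2 (0.104) and with low values raised (0.0554).

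Genes that make ribosomes were lower or not called, and 0 ribosomal protein genes were called. Of 19 ribosome biogenesis genes 10 were lower and 0 higher (median -0.43). NOLC1, a nucleolar phosphoprotein named after its value was seen, stood at 8.47 and 8.93 with GFP and 7.26 and 7.22 with activated Notch1, and POLR1C, a subunit shared by RNA polymerases I and III, at 8.60 and 8.68 with GFP and 7.88 and 7.77 with activated Notch1. NOLC1 fell by 1.46 ± 0.21 and POLR1C by 0.82 ± 0.13 (limma adjusted p = 0.000683 and 0.00147). NOP16, another nucleolar protein, fell by 0.90, a change of the same size but without a call where low values were raised. The lower count was 6 without GFP replicate 1, 3 without GFP replicate 2, 8 without Notch1 replicate 1 and 3 without Notch1 replicate 2. By contrast, 0 of 46 ribosomal protein genes were higher and 0 lower in the limma fit, with 0 also at an unadjusted p under 0.05, changes from -0.26 to 0.15 and a median of -0.02. Splicing factors and hnRNPs, with 2 higher and 3 lower of 51, had a median of -0.06, with 0 lower without GFP replicate 2 and 7 with the replicate block. Of these, SFPQ rose by 0.69 on 1 probe set, while its 5 other probe sets, with changes from -0.37 to 0.33, were not called. SRSF3 (0.43) and PRPF3 (-0.44) were called by margins that most omissions of an array removed, while SRSF5 and SNRPD3 were read off afterwards.

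Translation factors and aminoacyl-tRNA synthetases were mostly lower or not called. Of 40 translation factors 10 were lower and 1 higher (median -0.20), with 6 lower without Notch1 replicate 2. GSPT1 (eRF3), a termination factor, stood at 9.12 and 9.34 with GFP and 8.59 and 8.51 with activated Notch1 and fell by 0.68 ± 0.12 (limma adjusted p = 0.00291). EIF2S1, the alpha subunit of eIF2 and noted after its value was seen, fell by 0.57, and EIF5 was the higher one (0.62, not called without GFP replicate 1 or at its other probe set, with -0.23). Of 18 tRNA synthetase genes 6 were lower and 0 higher (median -0.40), a count of 3, 2, 4 and 3 without GFP replicates 1 and 2 and Notch1 replicates 1 and 2, and of 10 with the replicate block. The threonine enzyme TARS1 kept its call in each of those fits. It stood at 10.66 and 10.93 with GFP and 9.94 and 9.77 with activated Notch1 and fell by 0.94 ± 0.16 (limma adjusted p = 0.00232).

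**Figure D4:**
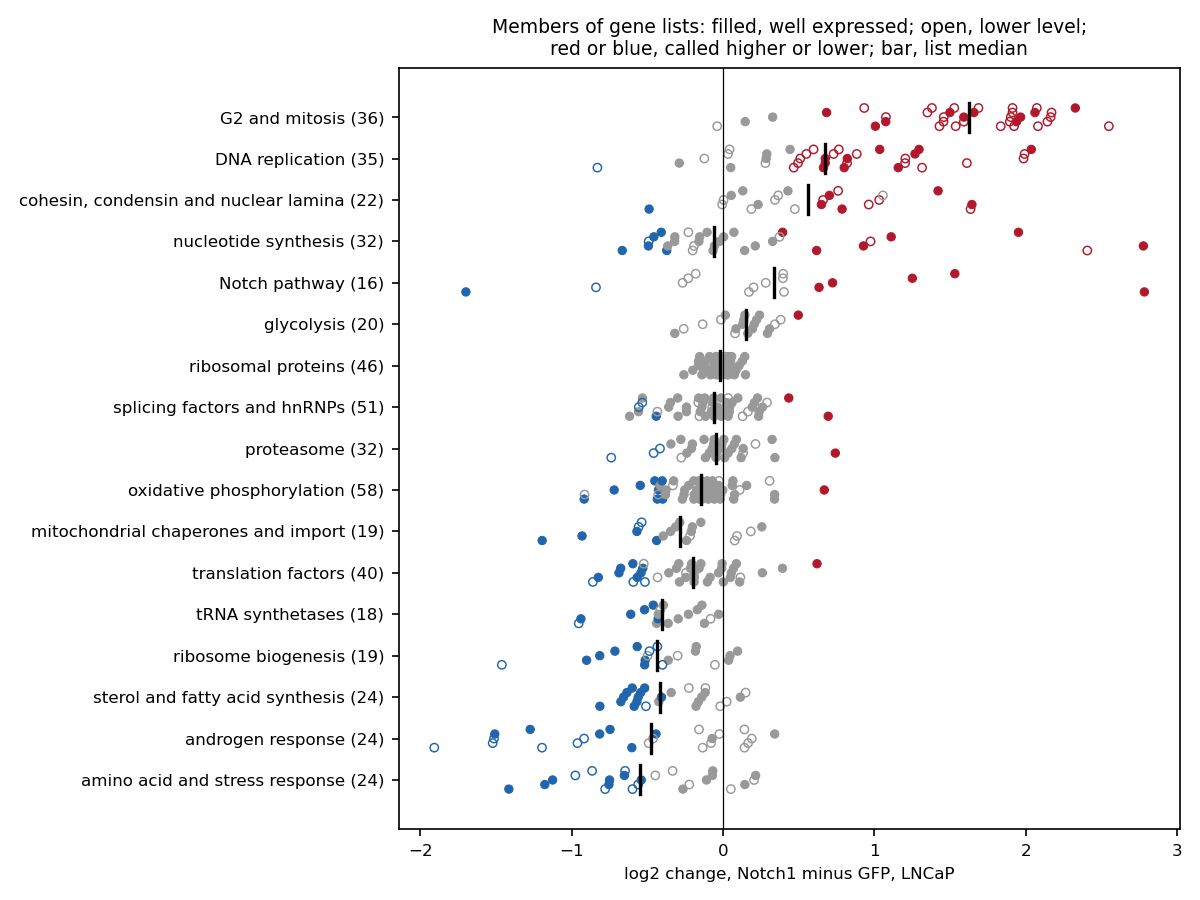
Change of each measured member (log2, Notch1 minus GFP, horizontal axis) for 17 gene lists with the number of measured genes in brackets. Filled points are well expressed, open points are not, red and blue mark calls, and the bar is the list median. G2 and mitosis lies furthest right (median 1.62), the ribosomal proteins are packed around -0.02, and the amino acid and stress response lies furthest left (median -0.55).

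Among mitochondrial genes the import receptors named here fell, and they were named because they were called. TOMM20 and TOMM70 recognise proteins at the outer membrane. TOMM20 averaged 10.98 with GFP and 10.05 with activated Notch1, and TOMM70 stood at 9.71 and 9.94 with GFP and 8.60 and 8.65 with activated Notch1, with no overlap between groups for either. They fell by 0.93 ± 0.12 and 1.20 ± 0.14 (limma adjusted p = 0.000457 and 0.000165). HSPD1, the matrix chaperonin, stood at 12.90 and 13.01 with GFP and 12.74 and 12.77 with activated Notch1 and was not called (-0.20, limma adjusted p = 0.29). Of the 19 chaperone and import genes 6 were lower and 0 higher (median -0.29), with 3 lower without GFP replicate 1 and 2 without Notch1 replicate 2. Respiratory chain and ATP synthase genes were close to the background. Of 51 well expressed members 8 were lower, or 15.7% against 14.9%, and the count was 3, 2, 5 and 2 without GFP replicates 1 and 2 and Notch1 replicates 1 and 2, and 14 with the replicate block. ATP5MC1, a ring subunit of ATP synthase, fell by 0.72 ± 0.12 and SDHA, of complex II, rose by 0.67 ± 0.13 (limma adjusted p = 0.00233 and 0.00417).

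Other metabolic lists held large single changes. In the TCA cycle list 2 were higher and 5 lower of 27, with 0 or 1 higher and 1 or 2 lower once any LNCaP array was left out. The lower count was 10 with the replicate block, 9 with median centring and 8 with an intensity trend. With ME1 and the pyruvate dehydrogenase component PDHX (-0.42), the lower ones were, as seen afterwards, IDH3G, PC and ME2, and the higher ones IDH2 (0.56) and GOT1 (0.40). PDHX, IDH2 and GOT1 each lost the call without any 1 of the 4 LNCaP arrays. The cytosolic malic enzyme ME1, which yields NADPH, kept its call. It stood at 9.20 and 9.20 with GFP and 8.21 and 7.99 with activated Notch1 and fell by 1.10 ± 0.12 (limma adjusted p = 0.000118). Glycolysis had 1 higher member of 20, PFKP (0.50), whose call was lost without GFP replicate 1 or either Notch1 array, and 0 lower. Among 32 antioxidant genes 2 were higher and 2 lower. PRDX6, a peroxidase, stood at 10.07 and 10.28 with GFP and 8.94 and 8.97 with activated Notch1 and fell by 1.22 ± 0.14, and the glutathione transferase GSTM3 rose by 0.64 (limma adjusted p = 0.000197 and 0.005). Noted after their values were seen, GCLC, which limits glutathione synthesis, fell by 1.95, and the heme oxygenase HMOX1 was the other higher member. Without Notch1 replicate 1 the higher count was 1. In fatty acid oxidation and peroxisomes, 3 were higher and 6 lower of 30. Beside the named ones, ACAA2 and ECHS1 were higher and HSD17B4, SLC27A2, PEX3 and PEX10 lower, as seen afterwards, and ABCD3 was lower (-1.06). ACADSB, which oxidises short branched acyl groups, rose by 2.16 ± 0.27 from 8.44 and 8.90 to 10.81 and 10.85, while ETFA, its electron acceptor, fell by 0.87 ± 0.13 (limma adjusted p = 0.000298 and 0.00117).

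The polyamine pathway showed opposite large changes around ornithine. OAT, which turns ornithine towards proline and glutamate, had levels of 4.08 and 4.11 with GFP and 7.40 and 7.63 with activated Notch1, a rise of 3.42 ± 0.14 (limma adjusted p = 2.47e-07), and was picked out after its value was seen. With values under log2 5 raised the OAT rise was 2.52. AMD1, which supplies the aminopropyl groups of spermidine, stood at 11.13 and 11.18 with GFP and 10.18 and 10.14 with activated Notch1 and fell by 1.00 ± 0.12 (limma adjusted p = 0.00027). ODC1, the first enzyme of polyamine synthesis, was at 12.10 and 11.98 with GFP and 11.79 and 11.57 with activated Notch1. This change of -0.36 was not called (limma adjusted p = 0.0819) but was called with an intensity trend, with median centring and with the replicate block. The other ODC1 probe set, with -0.37, was called lower in the main fit (limma adjusted p = 0.045). Of 13 genes 1 was higher and 3 were lower, the others being SRM (-0.57, not called without GFP replicate 1 or either Notch1 array) and ARG2, seen afterwards.

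**Figure D5:**
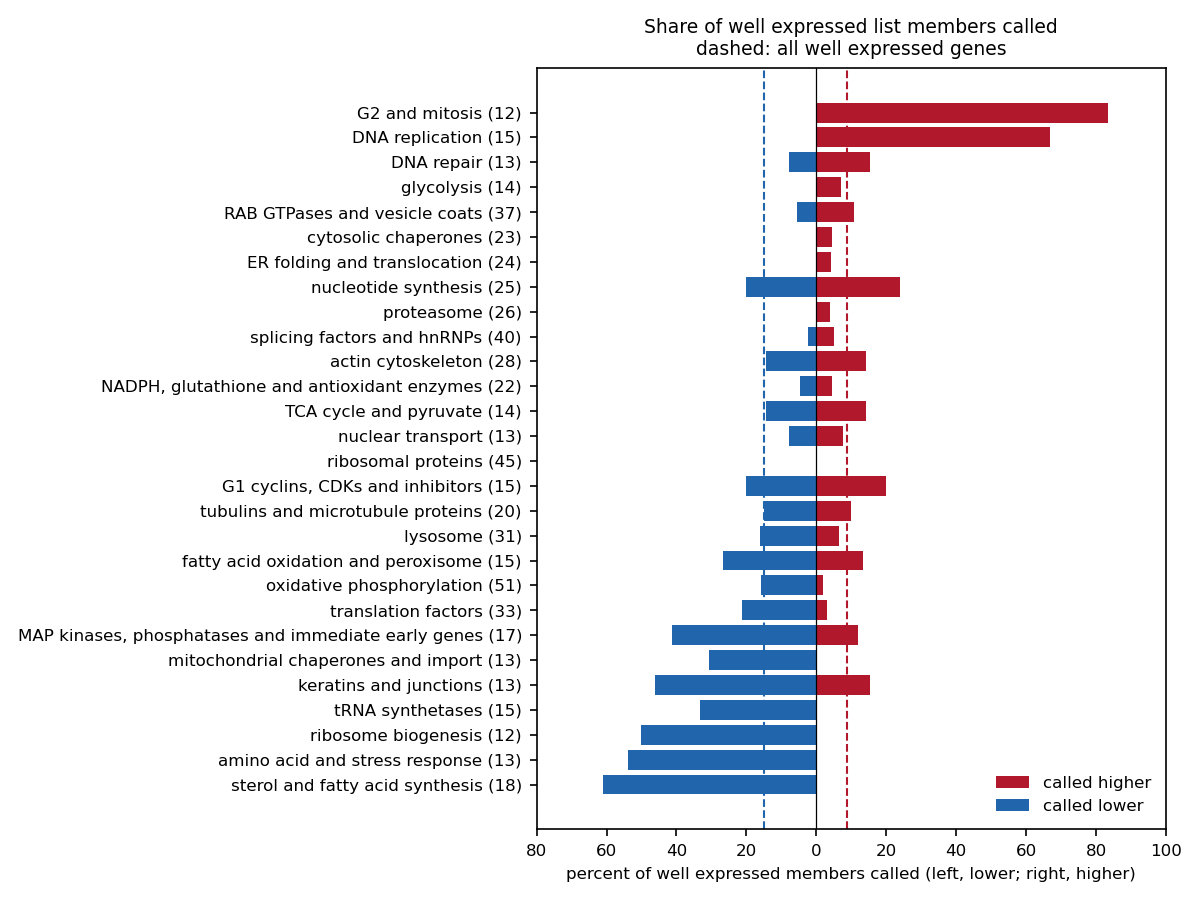
Percent of the well expressed members of each list called higher (red, to the right) or lower (blue, to the left), for lists with 12 or more well expressed members, whose number is in brackets. Dashed lines mark the shares among all well expressed genes, 8.82% higher and 14.9% lower. G2 and mitosis and DNA replication extend furthest beyond the right line, which other lists such as nucleotide synthesis (24.0%) also pass. Sterol and fatty acid synthesis extends furthest beyond the left line.

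Androgen response genes were lower or not called. The androgen receptor maintains the secretory products of luminal cells, and LNCaP depends on it. Of 24 measured genes of this response 12 were lower and 0 higher (median -0.48). At well expressed levels 6 of 8 were lower, and 11 or 12 of the list were lower without any single LNCaP array. Raising values under log2 5 left 7 lower and a median of -0.11. The kallikrein KLK2 had levels of 9.77 and 9.52 with GFP and 8.33 and 7.94 with activated Notch1, and prostatic acid phosphatase (ACP3) 7.71 and 7.92 with GFP and 5.83 and 5.98 with activated Notch1. TMPRSS2, a surface protease, stood at 9.08 and 9.18 with GFP and 8.36 and 8.27 with activated Notch1. KLK2 fell by 1.51 ± 0.20, ACP3 by 1.91 ± 0.12 and TMPRSS2 by 0.82 ± 0.14 (limma adjusted p = 0.000494, 4.16e-06 and 0.00214). The lipid phosphatase PLPP1 fell by 1.27, and the kinase CAMKK2, chosen after its value was seen, by 0.60. Prostate-specific antigen (KLK3) stood at 9.38 and 9.16 with GFP and 8.54 and 8.50 with activated Notch1 on its strongest probe set, a change of -0.75 (limma adjusted p = 0.00579) that was not called where low values were raised. The change itself was the same there, since these LNCaP values lie far above log2 5. Of 5 other KLK3 probe sets, those with -0.99, -0.94 and -0.70 were called and those with -0.40 and 0.05 were not.

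The label of the line was checked against its luminal markers. All 8 measured markers were above log2 5 on at least 1 LNCaP array, and their summed level (log2 of the sum) was 12.89 and 12.78 with GFP and 12.56 and 12.31 with Notch1. Of them 5 were lower and 0 higher, namely the 4 above and keratin 18 (KRT18, -0.65), whose call was lost without GFP replicate 1, without Notch1 replicate 2 and with low values raised. The lineage factors FOXA1 (-0.33, limma adjusted p = 0.219) and HOXB13 (-0.23, 0.299) and keratin 8 (KRT8, 0.06, 0.86) were not called. In such samples, fewer cells of a type and less RNA per cell cannot be told apart. Of 10 markers of PC3 and basal cells 1, annexin A1 (ANXA1), was higher and 0 lower. ANXA1, which restrains phospholipase and inflammation, stood at 4.41 and 5.06 with GFP and 8.00 and 7.95 with activated Notch1, a rise of 3.24 ± 0.19 (limma adjusted p = 2.05e-06). Their summed level was 10.47 and 10.51 with GFP and 10.74 and 10.79 with Notch1, with CAV1, CD44, PLAU and KRT5, 4 of the 10, under log2 5 on all LNCaP arrays. Vimentin (VIM), at 9.65 and 9.70 with GFP and 9.74 and 9.78 with activated Notch1, changed by 0.08 without a call (limma adjusted p = 0.711). Of 11 leukocyte and 11 stromal markers 0 were called in the limma fit, and 0 and 1 passed an unadjusted p of 0.05, with summed levels of 9.66 to 9.88 and 9.14 to 9.39 and 3 and 7 markers under log2 5 throughout. Of 10 neuroendocrine markers DDC (-0.78) and NTS (-0.60) were lower and 0 higher, NTS losing its call without any 1 of the 4 LNCaP arrays. Their summed level was 12.26 and 12.33 with GFP and 11.64 and 11.69 with Notch1. The part of these shifts in the other results was not tested.

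Of 35 genes of the TGF-beta family 6 were higher and 0 lower, with 5 or 6 higher without any single LNCaP array. The activin subunit INHBB had levels of 7.46 and 7.35 with GFP and 9.47 and 9.33 with activated Notch1, and ID1, which blocks differentiation factors, 9.61 and 9.89 with GFP and 11.16 and 11.23 with activated Notch1. They rose by 2.00 ± 0.12 and 1.44 ± 0.15, and the corepressor TGIF1 rose by 0.94 ± 0.14 (limma adjusted p = 2.05e-06, 7.74e-05 and 0.00101). BMP6 and SMAD3, chosen after their values were seen, rose by 2.22 and 0.68, the latter not called without GFP replicate 2 (adjusted p = 0.12), without Notch1 replicate 1 (0.139) or with low values raised (0.122). With the replicate block 2 genes of the family were lower. In insulin and PI3 kinase signalling 3 were higher (8.57%) and 5 lower (14.3%) of 35, near the 8.5% and 10.3% over all genes. The lower count was 9 with the replicate block. GRB10, an adaptor that restrains the insulin receptor, stood at 10.88 and 10.91 with GFP and 9.47 and 9.35 with activated Notch1, and IGFBP3, which binds insulin-like growth factors, at 9.62 and 9.34 with GFP and 11.33 and 11.03 with activated Notch1. PIK3R1, the regulatory subunit of PI3 kinase, stood at 7.35 and 7.61 with GFP and 5.14 and 5.11 with activated Notch1. GRB10 fell by 1.48 ± 0.12, PIK3R1 fell by 2.35 ± 0.19 and IGFBP3 rose by 1.71 ± 0.16 (limma adjusted p = 1.45e-05, 1.6e-05 and 3.89e-05). IGFBP2 fell by 0.94, and so did PIK3R3, seen afterwards, by 0.83, with INSR lower and TSC1 and INPP5D higher beside them.

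Among MAP kinases, their phosphatases and immediate early genes 14 of 47 were lower and 6 higher, with 8 and 9 lower without GFP replicate 2 and Notch1 replicate 1. Of all members 12.8% were higher and 29.8% lower, against 8.5% and 10.3% over all genes. Well expressed members were lower in 7 of 17 cases. KLF9, a zinc finger factor, fell by 0.82 ± 0.15 and the RNA-binding protein ZFP36L1 rose by 0.62 ± 0.11 (limma adjusted p = 0.00301 and 0.00362). Of those chosen later, the kinase MAP2K1 and the early gene IER2 fell by 0.61 and 0.63, and the matricellular protein CCN1 rose by 2.91. In cAMP and G protein signalling 4 were higher and 9 lower of 49, with 2 higher without GFP replicate 1 or Notch1 replicate 1 (the higher ones PDE3B, PDE4B, GNAI1 and GNB5, as seen afterwards), and GNB1, a G protein beta subunit, fell by 0.61. The shares of that G protein list were 8.16% higher and 18.4% lower. Receptor tyrosine kinases had 5 higher (11.9%) and 1 lower (2.38%) of 42, with 0 called at well expressed levels. The higher ones were EGFR, FGFR3, TEK, EPHB3 and EPHB6 and the lower one EPHA3, noted afterwards, and 3, 2 and 2 were higher without GFP replicate 1, GFP replicate 2 and Notch1 replicate 1. WNT and beta-catenin genes had 3 higher and 1 lower of 37, and 7 higher with the replicate block. The ligand WNT5A, picked afterwards with LRP6 and LEF1, rose by 2.90, and CSNK1A1 was lower (-0.52), a call kept only without Notch1 replicate 1 among omissions of an LNCaP array.

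Of 6 measured claudins, the sealing proteins of tight junctions, CLDN3, CLDN4 and CLDN7 fell and CLDN5, CLDN9 and CLDN10 were not called. CLDN3 had levels of 8.92 and 8.85 with GFP and 7.70 and 7.34 with activated Notch1, CLDN4 10.28 and 10.16 with GFP and 9.01 and 9.11 with activated Notch1, and CLDN7, named after its value was seen, 10.71 and 10.65 with GFP and 9.68 and 9.56 with activated Notch1. The Notch1 arrays were the lower pair for each. They fell by 1.36 ± 0.14, 1.17 ± 0.11 and 1.06 ± 0.12 (limma adjusted p = 8.96e-05, 5.8e-05 and 0.000172). The desmosomal plaque went both ways, with desmoplakin (DSP) rising by 1.18 ± 0.19 (limma adjusted p = 0.0015) and plakophilin 3 (PKP3), picked afterwards, falling by 0.94. In all, 8 of 38 keratin and junction genes were lower and 3 higher, with 5 lower without Notch1 replicate 2 and 6 higher with the replicate block, while their median was 0.06. Fibronectin (FN1), of the extracellular matrix, stood at 10.53 and 10.54 with GFP and 12.40 and 12.38 with activated Notch1 and rose by 1.85 ± 0.11 (limma adjusted p = 2.05e-06). Integrins, laminins and collagens had 6 higher and 5 lower of 45, of which 3 were lower without any single LNCaP array. The shares of this list, 13.3% higher and 11.1% lower, compare with 8.5% and 10.3% over all genes. The lower ones were COL5A2 (-0.65), COL6A1 (-0.45) and, seen afterwards, LAMC1, COL4A5 and COL9A3. COL5A2 was not called without Notch1 replicate 1, and COL6A1 without any 1 of the 4 LNCaP arrays. In the mesenchymal list FN1 and SNAI2 (Slug) were higher and 0 of 18 lower. SNAI2, a repressor of epithelial genes, was at 1.45 and 0.98 with GFP and 7.25 and 7.02 with activated Notch1. Its rise of 5.92 started far under log2 5 and was 2.13 where such values were raised to log2 5.

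The cytoskeleton was mixed. Among actin genes 6 were higher and 6 lower of 44, the latter 2, 1 and 2 without GFP replicate 2, Notch1 replicate 1 and Notch1 replicate 2. The shares were 13.6% in each direction, against 8.5% higher and 10.3% lower over all genes. With the replicate block 10 were higher. Gelsolin (GSN), which severs filaments, stood at 4.37 and 4.33 with GFP and 7.88 and 8.31 with activated Notch1, smooth muscle actin (ACTA2) at 8.12 and 8.22 with GFP and 9.57 and 9.33 with activated Notch1 and LASP1, an actin-binding adaptor, at 8.33 and 8.42 with GFP and 9.66 and 9.52 with activated Notch1. They rose by 3.74 ± 0.16, 1.28 ± 0.13 and 1.22 ± 0.11 (limma adjusted p = 4.14e-07, 8.33e-05 and 4.09e-05). Moesin (MSN) and transgelin 2 (TAGLN2), noted after their values were seen, rose by 0.63 and 0.69. Among tubulin genes, which share sequence, 5 were higher and 3 lower of 32, with 1, 3 and 3 higher without GFP replicate 1, GFP replicate 2 and Notch1 replicate 1. The members not described here were TUBA1A, MAPRE2, MAP1A and, lower, DYNLT1. Stathmin (STMN1), which destabilises microtubules, rose by 0.83 ± 0.11, while TUBB2A and TUBA4A fell by 0.97 and 0.79 (limma adjusted p = 0.000509, 0.000513 and 0.0032). TUBA1B, a main alpha-tubulin, was at 11.90 and 11.99 with GFP and 12.43 and 12.55 with activated Notch1 (0.55, limma adjusted p = 0.00781) and was not called without GFP replicate 1 or Notch1 replicate 2.

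Secreted epithelial proteins included the largest rise of any gene. TFF1, a trefoil peptide of mucous epithelia, had levels of 6.05 and 6.16 with GFP and 12.18 and 12.08 with activated Notch1, a rise of 6.03 ± 0.17 (limma adjusted p = 4.16e-08). Of 20 genes of secretory epithelium 5 were higher and 0 lower, including, as seen afterwards, SCGB1A1 (3.31) and AGR2 (1.73) with TFF2 and SLPI, and 3 without GFP replicate 2 or Notch1 replicate 2. Among annexins and S100 proteins 5 were higher and 2 lower of 24, with 3 higher without Notch1 replicate 1. They were ANXA1, ANXA5 (0.49), S100P and, seen afterwards, ANXA6 and S100A10, against ANXA7 (-0.90) and ANXA9. ANXA5 lost its call without GFP replicate 1 (adjusted p = 0.13), Notch1 replicate 1 (0.0729) or Notch1 replicate 2 (0.0881), and ANXA7 without GFP replicate 2 (0.242), Notch1 replicate 1 (0.234) or Notch1 replicate 2 (0.132), without either PC3 Notch1 array (0.0742) and with low values raised (0.267). The calcium-binding protein S100P rose by 2.09 ± 0.12 (limma adjusted p = 1.91e-06). The other largest rises at well expressed levels were those of the neuronal serpin SERPINI1 (3.15), the kelch protein ENC1 (2.96), the PCNA-binding protein PCLAF (2.62), the tetraspanin TSPAN8 (2.00) and the integrin adaptor FERMT2 (1.96). At any level CLEC2B, a lectin-like receptor, also rose by 4.28.

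Apart from a MAP2K5 probe set taken up last, the largest falls were those of PRUNE2, LRBA, SEMA3C and STK39 among well expressed genes. PRUNE2 had levels of 9.39 and 9.62 with GFP and 6.67 and 6.56 with activated Notch1, a fall beyond the spread of either group. It fell by 2.89 ± 0.16, the vesicle protein LRBA by 2.37 ± 0.14, the semaphorin SEMA3C by 2.21 ± 0.16 and the kinase STK39 by 2.05 ± 0.13 (limma adjusted p = 1.87e-06, 2.51e-06, 9.09e-06 and 4.38e-06). Beside JAG2, KLK2 and GRB10 they were followed by ANK3, UNC13B, TM7SF2, BAMBI, ST3GAL1, LPCAT3 and MAN2A2, with changes from -1.71 to -1.45. LPCAT3 was not called without GFP replicate 2 (adjusted p = 0.0939), Notch1 replicate 1 (0.124) or Notch1 replicate 2 (0.110). At a lower level SSBP2 fell by 2.53. A probe set of MAP2K5, a kinase of the ERK5 cascade, read 14.10 and 14.11 with GFP and 4.46 and 5.08 with activated Notch1, a change of -9.34, while the 4 other MAP2K5 probe sets changed by 0.47, 0.37, 0.19 and 0.05, the first pair called higher. The single probe set is therefore not read as a fall of the gene.

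The remaining lists gave few calls, and their shares are set against 8.5% higher and 10.3% lower over all genes. Those shares were 7.46% and 11.9% for RAB GTPases and vesicle coats and 3.7% and 14.8% for lysosomal genes. For nuclear transport they were 13.3% in each direction, and for apoptosis 14.7% and 8.82%. RAB GTPases and vesicle coats had 5 higher and 8 lower of 67 of which 2 were higher without any 1 of the LNCaP arrays, and 4, 4 and 3 lower without GFP replicate 2, Notch1 replicate 1 and Notch1 replicate 2. With the replicate block 13 were lower. AP3S1, of the AP-3 coat, rose by 1.04, and the other higher ones, seen afterwards, were RAB27B, RAB35, RABAC1 and SAR1A. Lysosomal genes had 2 higher and 8 lower of 54, with 5 and 4 lower without GFP replicate 2 and Notch1 replicate 2. ATP6V1B2 (1.14) and, seen afterwards, ATP6V1E1 were higher, with 0 higher without Notch1 replicate 2. ATP6V1A, the catalytic subunit of the proton pump, fell by 0.73 ± 0.13 (limma adjusted p = 0.00308), as did cathepsin H (CTSH), noted afterwards, by 0.69. The proteasome had 1 higher and 3 lower of 32, cytosolic chaperones 1 and 1 of 29, the mitochondrial ribosome 1 and 1 of 13, and nuclear transport 4 and 4 of 30. When single LNCaP arrays were left out, the proteasome had 0 or 1 lower and nuclear transport 2 or 3 higher and 2 to 4 lower, with 7 higher under the replicate block, which also left 3 mitochondrial ribosome genes lower. The single calls among the well expressed were PSMC3 (0.74, lost without GFP replicate 2 or Notch1 replicate 1), DNAJC7 (0.60, lost without the same arrays), MRPL28 (0.60), NUP93 (0.92) and NUP98 (-0.78, lost without Notch1 replicate 2 and called higher at another probe set). Under log2 8 and seen afterwards were PSMD12, PSME3 and PSME4, BAG1, MRPS14, and KPNA4, IPO7 and RANBP2 (lower) and KPNA2, IPO8 and RCC1 (higher). Of p53 targets 4 were higher and 2 lower of 15, with 2 higher without GFP replicate 2 or Notch1 replicate 1. They included DDB2, BAX (0.72, lost without the same arrays and with 1 of its 4 other probe sets called) and, seen afterwards, GADD45A, with PMAIP1 lower. GDF15, a secreted stress factor, fell by 0.93 ± 0.13 (limma adjusted p = 0.000552), and TP53I3, a quinone reductase noted after its value was seen, rose by 3.48. Apoptosis genes had 5 higher and 3 lower of 34, among them the death ligand TNFSF10 (TRAIL), noted likewise, which rose by 3.84 and by 1.47 with values under log2 5 raised. Only 2 or 3 apoptosis genes were higher without an LNCaP array. The others were BAX, BCL2L11, CASP2 and CASP6 (higher) and BCL2L2 (-0.47, called only without GFP replicate 1 among these omissions), BIK and DFFB (lower). NF-kB subunits and targets had 0 higher and 1 lower of 26, and interferon response genes 1 and 1 of 33, the calls being TNFAIP2, IFIT1 (both seen afterwards) and ISG15 (-0.57), of which none held in all 4 omissions of an LNCaP array. Steroid and xenobiotic enzymes had 4 higher and 2 lower of 20, with 2 higher without GFP replicate 2 or Notch1 replicate 1 (SULT1A1, 0.50, lost also without GFP replicate 1, and, seen afterwards, UGT2B4, HSD17B2 and HSD3B1). The lower ones were UGT2B15 (-1.71) and UGT2B17 (-2.25), near-identical enzymes that inactivate androgens, named after their values were seen. Where 0 members were called in a direction by limma, 0 also passed an unadjusted p of 0.05 in that direction for G2 and mitosis, ribosome biogenesis, tRNA synthetases, mitochondrial import, sterol synthesis, glycolysis, secretory epithelium, the luminal, basal and neuroendocrine markers, while 1 did so for androgen response, NF-kB and the mesenchymal list and 3 for the TGF-beta family.

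The effect of Notch1 in LNCaP was set against its effect in PC3 by the difference of the differences, which was called for 1778 of 12558 probe sets (14.2%). For CDK1 the effect was 2.33 in LNCaP and 0.05 in PC3, and for FASN -0.68 and 0.58. The difference was 2.28 for CDK1 and -1.25 for FASN (limma adjusted p = 7.82e-05 and 0.00113). HES1, with 2.78 and 2.56, was not called as different (limma adjusted p = 0.359), but was under quantile normalization (difference 0.61, adjusted p = 0.0338).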

How the data were processed

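Per the methods, the authors summarised the Affymetrix U95Av2 files by RMA (background correction, normalization, summary over probes) in R, and they deposited log2 expression values per probe set and array, without pooling. Their versions were not stated in the sources read. The deposited log2 values were used unchanged, less 67 control probe sets. Limma 3.58.1 in R 4.3.3 was fitted to all 8 arrays with 1 mean per group (4 residual and 6.37 prior degrees of freedom, two-sided tests). Each gene took the values of 1 probe set, that with a single symbol and the highest LNCaP mean. The script was tested on simulated data.

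The gene lists and named genes were chosen with earlier results of these data known. The rule named HES1 and 11 other anchor genes, the 15 largest rises and falls at well expressed levels, up to 3 well expressed called members per list with up to 2 in the other direction, the 3 largest changes at any level each way, MAP2K5 and the marker genes. Others are named as chosen after their values were seen.

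Replicate numbers recur in all groups. Deviations of replicate 1 from the group mean correlated at 0.124 to 0.545 over all pairs of groups, although no source says what the numbers mark. The main fit did not pair the arrays by them, and it gave the counts and p-values wherever no other setting is named. A fit with the numbers as a block is given only as an alternative. Alternatives were a replicate block, an intensity trend, median centring, quantile normalization, LNCaP arrays alone, a filter on low levels, a floor at log2 5, other limits for well expressed genes and the omission of each array.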

Additional observations from a re-analysis of the deposited data

Results flagged for a closer look

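For 7 of 12 anchor genes the effect of activated Notch1 differed between the lines, as the LNCaP effect minus the PC3 effect in the limma fit, with n = 2 arrays in each of the 4 groups. The anchor genes were chosen with earlier results known. Such differences were common among well expressed genes called in LNCaP. They were called in the direction of the LNCaP change for 101 of 214 rises and 194 of 361 falls. In the opposite direction they were called for 3 and 2. These genes were selected by their LNCaP change, which is also part of the difference. A match in direction is favoured by that selection and is not read as a result. CDK1 rose more in LNCaP, by 2.28 (adjusted p = 7.82e-05). FASN changed by -0.68 in LNCaP and 0.58 in PC3, a difference of -1.25 (adjusted p = 0.00113). HSPA5, not called in LNCaP alone (-0.39), changed by 0.95 in PC3, a difference of -1.33 (adjusted p = 0.00273). PIK3R1 changed by -2.35 and -0.15 (difference -2.20, adjusted p = 0.000556), and GSN by 3.74 and 1.33 (difference 2.41, adjusted p = 0.000114). TYMS changed by 1.11 and 0.25, a difference of 0.86 (adjusted p = 0.013) that was not called with values under log2 5 raised (0.0581), without LNCaP Notch1 replicate 1 (0.0567) or without PC3 Notch1 replicate 2 (0.0614). TUBA1B changed by 0.55 and -0.01, a difference of 0.56 (adjusted p = 0.0467) that was not called with median centring (0.0975), with quantile normalization (0.0558) or when any single array was left out. PCNA, with a difference of 0.59, was not called (adjusted p = 0.0625) but was with the replicate block (0.03), an intensity trend (0.0292), quantile normalization (0.0136) and the filter on low levels (0.0498) and without PC3 GFP replicate 1 (0.0211). In LNCaP, 2 of 2 Notch1 arrays lay beyond both GFP arrays for the 7 genes called as different. The same held for all 214 rises and all 361 falls among well expressed called genes, so it adds nothing to these calls.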

How the results depend on the processing

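In the set of named genes that was checked, direction and call were the same for 133 of 189 called, under every alternative, and 0 reversed. This set leaves out genes that were only listed as seen or noted afterwards, such as PFAS, RBL2 and EGFR. Raising values under log2 5 to log2 5 left 730 probe sets lower in place of 1170 and removed 40 calls of named genes, among them those of KLK3, INSIG1, NOP16, EIF3I, TOB1, ATP5F1D and ABCD3, with 0.386 prior degrees of freedom in place of 6.37. The LNCaP changes of these genes, and of SREBF2, KRT18 and SMAD3, kept their size in that fit. What altered for them was the estimate of spread. It also left 4 ribosome biogenesis genes, 5 translation factors, 3 tRNA synthetases and 8 MAP kinase and early genes lower and 6 cohesin, condensin and lamina genes higher. Counted as well expressed from log2 7, 452 probe sets were higher, and from log2 9, 131 were higher and 267 lower. Leaving out 1 of the 8 arrays gave 539 to 1196 probe sets higher and 638 to 1350 lower, and 152 to 314 higher and 232 to 551 lower among the well expressed. Median centring gave 846 higher and 1420 lower.

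With the replicate number as a block, 1357 probe sets were higher and 1514 lower, 357 and 628 of them well expressed, and the block added calls for 3 named genes and removed 0. With 2 arrays per group, small changes were not detectable, and values under log2 5 carry little signal over background.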
